A study of Arabidopsis thaliana with 39 samples.

Results

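The genes described here are the 100 whose transcripts stood highest after 1 day of secondary dormancy induction in Arabidopsis thaliana seeds, relative to the other 5 time points of the same experiment. They were selected on measured values. The unique molecular identifiers (UMIs) of all 32 seeds of a library were summed, scaled to CPM (counts per 1e6 counts) over the nuclear gene rows (locus names AT1G to AT5G) and averaged over the 3 libraries of each time point. Among the 4730 genes with a mean of at least 30 CPM at 1d, of 36899 nuclear genes counted, the 100 with the largest ratio of the 1d mean to the highest other mean were taken, with 1 added to each mean. The time-course values of these genes are therefore a description with no test, and tests were run only on libraries that the selection did not use.

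Secondary dormancy (SD) is the reversible block to germination that a seed which has already lost its primary dormancy enters under unfavourable conditions. Single Col-0 seeds were profiled by 3' RNA-seq after 1 h of imbibition at 22°C (1h), after 1, 3, 5 and 7 days in darkness at 30°C on wet paper (1d, 3d, 5d, 7d), and in seeds moved to permissive conditions for 24 h after the 7 days (7d+24h). All these seeds came from 1 seed pool, so the 3 libraries of a time point are batches of seeds, and a pool-split control was made by mixing extracts of 7d seeds and dividing the mixture over 32 reactions in each of 3 libraries. A genotype experiment held 3 libraries each of Col-0 and of dog1-4, a mutant of the dormancy gene DELAY OF GERMINATION 1 with reduced primary dormancy, at 3d and at 7d+24h. Bulk RNA of dry seeds was measured in 3 pools of Col-0 and 3 of dog1-4. Which seed pools gave the genotype experiment is not stated in the labels, so there an effect of genotype and an effect of the seed pool cannot be told apart.

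In the dry seed, transcription is at rest and the cells hold stored mRNAs, storage proteins (cruciferins and albumins), late embryogenesis abundant (LEA) proteins and oil bodies. Imbibition starts new transcription and translation, and the embryo then either proceeds towards cell wall loosening, DNA synthesis and growth or arrests. The gibberellins promote germination and abscisic acid opposes it, and heat with darkness is a classical way of pushing imbibed seeds back to dormancy.

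Promoter sequences are given for members of 2 gene groups that recur in the results below. Seed storage and LEA genes are known to be bound through the G-box (CACGTG) by bZIP factors of the abscisic acid pathway, and genes for ribosomal proteins often carry site II elements (GGCCCA). The windows are the 300 bases before the RefSeq gene start in TAIR10.1, whose nuclear chromosomes are those of the TAIR10 build the authors mapped to, and are written 5′ to 3′ along the gene with every copy of the named motif, on either strand, in capitals. The seed storage albumin SESA2 (chr4:13609041-13609340, plus strand), the LEA family gene AT3G02480 (chr3:511920-512219, plus strand), LEA18 (chr2:14863413-14863712, minus strand) and the cupin AT2G28490 (chr2:12181013-12181312, minus strand) held a G-box 36 to 69 bases before the gene start. The ribosomal protein genes AT2G41840 (S5 family, chr2:17461540-17461839, minus strand) and AT3G53740 (L36e family, chr3:19915067-19915366, minus strand) held site II.
SESA2: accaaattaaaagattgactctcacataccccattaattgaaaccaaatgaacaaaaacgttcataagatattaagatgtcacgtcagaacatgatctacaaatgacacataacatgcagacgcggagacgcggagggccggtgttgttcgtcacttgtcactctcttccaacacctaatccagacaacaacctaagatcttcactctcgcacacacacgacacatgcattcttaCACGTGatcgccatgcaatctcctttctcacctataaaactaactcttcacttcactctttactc
AT3G02480: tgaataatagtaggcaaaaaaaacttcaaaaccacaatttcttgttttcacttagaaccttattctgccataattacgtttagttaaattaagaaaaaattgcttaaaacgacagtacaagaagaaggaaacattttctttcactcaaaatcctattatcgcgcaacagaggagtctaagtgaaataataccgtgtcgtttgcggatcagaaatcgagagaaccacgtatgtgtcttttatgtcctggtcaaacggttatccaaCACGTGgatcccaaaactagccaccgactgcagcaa
LEA18: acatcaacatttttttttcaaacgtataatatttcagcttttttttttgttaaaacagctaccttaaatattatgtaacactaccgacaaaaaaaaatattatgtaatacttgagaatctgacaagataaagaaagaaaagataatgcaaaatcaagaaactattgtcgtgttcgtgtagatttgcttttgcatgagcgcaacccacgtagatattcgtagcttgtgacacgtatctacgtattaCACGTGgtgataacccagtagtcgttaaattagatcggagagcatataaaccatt
AT2G28490: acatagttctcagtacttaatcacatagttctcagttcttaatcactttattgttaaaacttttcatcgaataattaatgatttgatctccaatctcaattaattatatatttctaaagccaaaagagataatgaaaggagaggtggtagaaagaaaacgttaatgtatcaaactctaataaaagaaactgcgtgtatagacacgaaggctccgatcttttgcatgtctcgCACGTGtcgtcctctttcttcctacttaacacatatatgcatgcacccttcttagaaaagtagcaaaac
AT2G41840: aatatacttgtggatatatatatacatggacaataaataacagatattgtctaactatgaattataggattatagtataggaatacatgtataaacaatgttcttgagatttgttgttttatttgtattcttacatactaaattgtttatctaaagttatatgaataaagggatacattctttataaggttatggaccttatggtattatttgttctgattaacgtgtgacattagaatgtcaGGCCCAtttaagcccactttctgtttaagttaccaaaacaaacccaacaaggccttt
AT3G53740: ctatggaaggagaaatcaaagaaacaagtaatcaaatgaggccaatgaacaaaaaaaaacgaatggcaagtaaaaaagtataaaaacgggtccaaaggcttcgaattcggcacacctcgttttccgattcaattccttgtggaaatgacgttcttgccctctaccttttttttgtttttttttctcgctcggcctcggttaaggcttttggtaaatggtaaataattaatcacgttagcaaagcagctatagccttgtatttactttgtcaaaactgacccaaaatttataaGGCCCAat

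Of the 6 members in the storage, LEA and oil body list, 4 held a G-box in this window, against 25.6% of the 168 genes of that list with at least 30 CPM at 1d, and none held site II. The search of product names for this list ignored case. With case kept 52 such genes matched, and their G-box share was not computed. The LEA gene EM1, a member that the list did not match, held no G-box in its window. Of the 7 translation members 4 held site II, against 50.2% of the 277 genes of the translation list. Over all 100 members the motif shares lay near those of the 4729 selectable genes with a window. The G-box was found in 12 member windows (10.4% of the selectable genes and 5.98% of all 37897 genes) and site II in 20 (24.0% and 12.3%). The W-box core TTGAC was in 49 (48.8% and 49.5%), the TGA core TGACG, which shares TTGACG with it, in 19 (22.6% and 20.9%), and the heat shock element GAANNTTC in 9 (10.6% and 11.3%). The telo box AAACCCTA was in 2 (5.24% and 5.53%) and the E2F site TTTCCCGC in 0 (0.508% and 0.646%). All motifs were searched on both strands, and a match is a description of the letters only.

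The members were scattered over the genome, with 27 on chromosome 5, 23 on chromosome 3, 22 on chromosome 1, 15 on chromosome 2 and 13 on chromosome 4. By RefSeq, 97 code for proteins, 2 are U3 small nucleolar RNAs (U3D and U3B, which take part in ribosomal RNA processing) and 1 is a long non-coding RNA (AT5G06845). Next to each other in the genome were the glutathione S-transferase genes GSTF7 and GSTF6, 1107 bases apart on the same strand of chromosome 1, the histone gene AT3G53730 and the ribosomal protein gene AT3G53740, 135 bases apart on chromosome 3, and ATS3 and the gibberellin oxidase gene GA20OX3, 4832 bases apart on chromosome 5. Counts are uncertain for 7 members that overlap a gene on the same strand (TSO2, AT1G78780, TIM, AT2G41840, AT4G28240, AT4G36195 and MUB4) and for those with near-identical copies, such as GSTF6 and GSTF7, SESA2 and CRA1.

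The ratios ran from 8.66 down to 1.36 with a median of 1.56, so most members stood moderately above their next highest time point. The ratio was over 2 for 22 members, over 3 for 8 and over 4 for 4. Among all 4730 selectable genes the median ratio was 0.672, and 473 genes had their highest mean at 1d. The next highest time point was 7d+24h for 58 members, 3d for 14, 7d for 13, 1h for 12 and 5d for 3. At the lower edge of the list, the GDSL lipase gene AT5G55050 (rank 99) had a ratio of 1.37 and NPL41 (rank 100) of 1.36, and the first genes outside it, PRPS20 and XF1, also had 1.36. For 79 members every 1d library lay above all 15 other libraries, which held for 3.00% of the selectable genes, a contrast that the selection itself used.

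**Figure D1:**
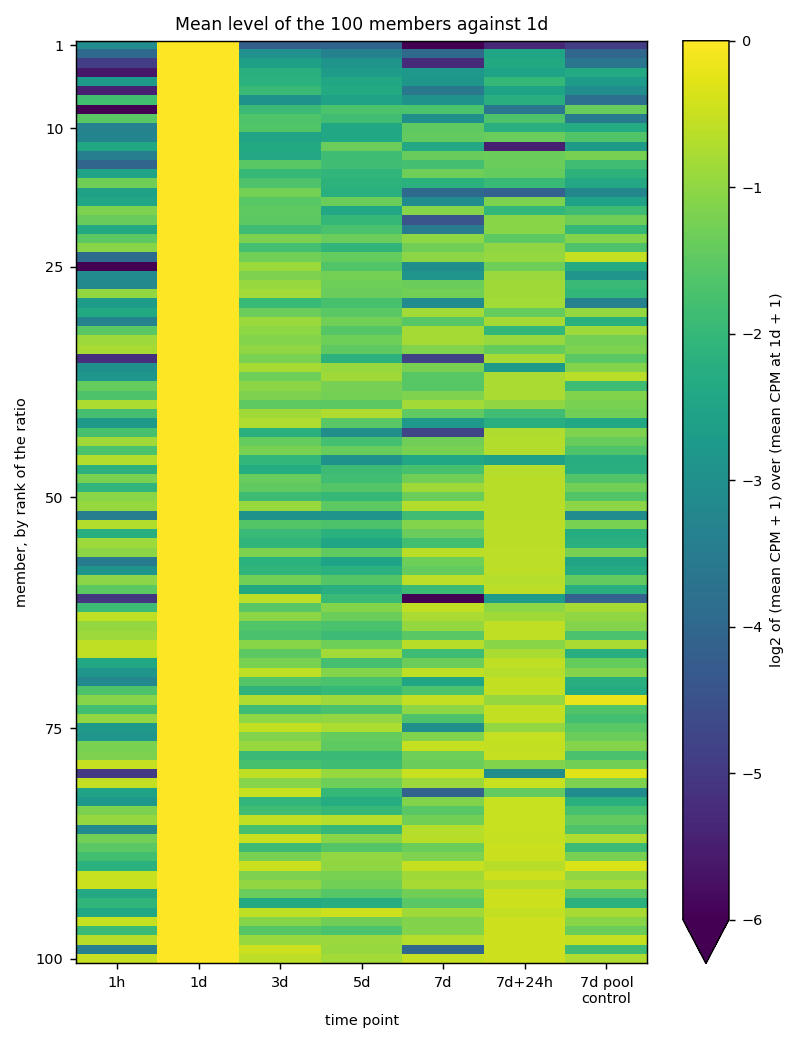
Mean level of each of the 100 members (rows, by rank of the ratio) at each time point and in the 7d pool-split control (columns), as log2 of the mean CPM + 1 over the mean CPM at 1d + 1, with yellow at the 1d level. The 1h column is the darkest for many members, and most rows are brighter at 7d+24h, the next highest time point of 58 members.

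Sequencing and handling differed between the time points. Libraries of the time course and the control held 794376 to 3186856 UMIs on nuclear genes. UMIs outside nuclear protein-coding genes, called unspecific here, include those on non-coding and organellar genes. They made up 21.3% of a library at 1d, 53.5% at 1h, 67.6% at 3d, 71.9% at 5d, 28.8% at 7d and 22.5% at 7d+24h on average. Across seeds, the correlation of a member's counts with these unspecific UMIs was at most -0.03 (median -0.18), and none passed 0.3, which 1.01% of the selectable genes did. Their part in the levels was not tested. All libraries share the same 32 seed barcodes by design. Among the other tissue markers, RBCS1A (the small subunit of Rubisco) was at 57.8 to 87.4 CPM at 1d and LHCB1.3 (a chlorophyll-binding protein) at 0.354 to 0.781. The endosperm markers differed. EPR1 was at 2733 to 4159 CPM at 1d, below its mean of 11303 at 1h, while EXPA2 had a mean of 2.37 at 1d and MAN7 of 15.9. DOG1 was at 5.596 CPM at 1d, its lowest mean in the time course.

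The members took 13.1% of all nuclear UMIs at 1d (12.9% to 13.4% over the 3 libraries), against 2.66% at 1h, 6.64% at 3d, 5.87% at 5d, 5.51% at 7d and 3.29% at 7d+24h. Much of this was CRA1, which encodes a 12S cruciferin storage globulin and held 8.63% of the UMIs at 1d. Without it the members' share was 4.50% at 1d and 1.35% to 1.98% elsewhere. The median fold of the 1d mean over the other means was 3.64 for 1h, 2.703 for 3d, 3.16 for 5d, 2.54 for 7d and 1.71 for 7d+24h, each with 1 added. The median member was at 138 CPM at 1d, and the coefficient of variation of its 3 libraries was 13.4%. Scaling by TMM moved the median log2 difference of all selectable genes between 1d and the other points by 0.23 (7d) to 1.19 (5d). All 100 members stayed above every other time point under it, with a median ratio of 2.07, but 1906 genes then peaked at 1d, so the order among genes depends on the scaling.

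The chitinase family gene AT2G43590 had the highest ratio. Its 3 libraries were at 230, 150 and 215 CPM at 1d, against 21.8, 26.4 and 17.8 at 1h, 6.29, 10.3 and 13.4 at 3d, 11.1, 15.6 and 5.96 at 5d, 0.639, 1.04 and 0.989 at 7d and 3.14, 4.78 and 4.13 at 7d+24h. No other library of the time course came near the 1d libraries. With 1 added to each mean, the 1d mean was 8.66 times that of 1h and 105 times that of 7d, where the gene was near 0. AT5G22580, a stress responsive A/B barrel domain gene, was likewise near 0 at 7d. It was at 81.1, 93.9 and 75.7 CPM at 1d, 1.04, 3.40 and 0.989 at 1h, 1.28, 0 and 2.31 at 7d and 13.8, 17.1 and 15.8 at 7d+24h.

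Genes for making DNA precursors were among the leaders. TSO2, a small subunit of ribonucleotide reductase that makes deoxyribonucleotides, was at 81.4, 88.8 and 139 CPM at 1d and at 18.5, 19.5 and 15.8 at 7d+24h, its next highest point, with 3.83 to 15.7 in all other libraries. TK1a, a thymidine kinase of the salvage pathway, was at 49.2, 52.6 and 49.6 CPM at 1d and at most 22.7 elsewhere. Neither gene's 1d libraries overlapped another time point. With these went the histones HTB9 (H2B) at 76.5, 127 and 131 CPM at 1d, the H4 gene AT3G53730 at 63.7, 121 and 131, and AT1G06760 and AT2G30620, which RefSeq lists as winged-helix factors with a linker histone domain, at 347, 458 and 530 and at 100.9, 234 and 241. For all 4 histone genes the 1d libraries overlapped libraries of another time point. TRM28, which the product name lists as a histone methyltransferase although its symbol is that of a TON1 recruiting motif protein, was at 32.9, 68.9 and 116 CPM at 1d.

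The third library of a time point was the highest at all 6 time points for 5 members, AT1G70985, AT3G53730, SCL3, HTB9 and E12A11, and for 1.04% of the selectable genes. No member had its first or second library highest or lowest throughout. SCL3, a GRAS family regulator of gibberellin signalling, was at 143, 254 and 340 CPM at 1d, 73.0, 155 and 221 at 3d and 23.8, 46.6 and 83.7 at 7d+24h. In the pool-split control, where seeds were mixed, it was at 42.9, 45.4 and 48.7. In all, 11 members had a coefficient of variation above 30% at 1d, the largest being AT5G09800 (81.3%) and TRM28 (57.5%). AT5G09800, an ARM repeat gene, was at 9.56, 27.9 and 63.3 CPM at 1d against 13.5, 13.6 and 5.93 at 1h, and without its replicate 3 it did not reach 30 CPM at 1d.

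Cell wall and carbohydrate genes formed a further group. XTH15, a xyloglucan endotransglucosylase that remodels the cell wall, was at 167, 170 and 162 CPM at 1d, 2.08, 4.25 and 1.98 at 1h and 65.3, 5.97 and 12.7 at 7d+24h. The 1d libraries were almost equal, while the recovery libraries were spread over a more than 10-fold range. Its relative XTH11 was at 614, 503 and 702 CPM at 1d and 36.6 to 373 elsewhere, and the glycosyl hydrolase gene AT5G20950 at 212, 168 and 184 and at most 149. The beta-glucosidases BGLU25 (97.7, 87.7 and 104 CPM at 1d, at most 27.5 elsewhere) and BGLU44 (167, 158 and 184, at most 75.6 elsewhere) were also separate from all other libraries.

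Genes for proteases and their inhibitors stood on both sides. The protease gene DEG14 was at 1112, 664 and 775 CPM at 1d, 18.7, 12.8 and 17.8 at 1h and 79.3 to 273 later. The cysteine protease inhibitor CYS2 was at 1063, 930 and 709 CPM at 1d, 11.4, 8.51 and 7.91 at 1h, and 57.2 to 364 later. These were among the largest folds over 1h (with 1 added to each mean), 48.9-fold for DEG14 and 87.6-fold for CYS2, next to 89.1-fold for GA20OX3. The trypsin inhibitor TI1 was at 512, 352 and 403 CPM at 1d but reached 391 in 1 library of 7d+24h and 330 in 1 of 3d, so its groups overlapped. APA1, an aspartic proteinase of the vacuole, was at 889, 913 and 829 CPM at 1d and 296 to 583 elsewhere, and the second cystatin, CYS1, at 59.8, 45.7 and 47.6.

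**Figure D2:**
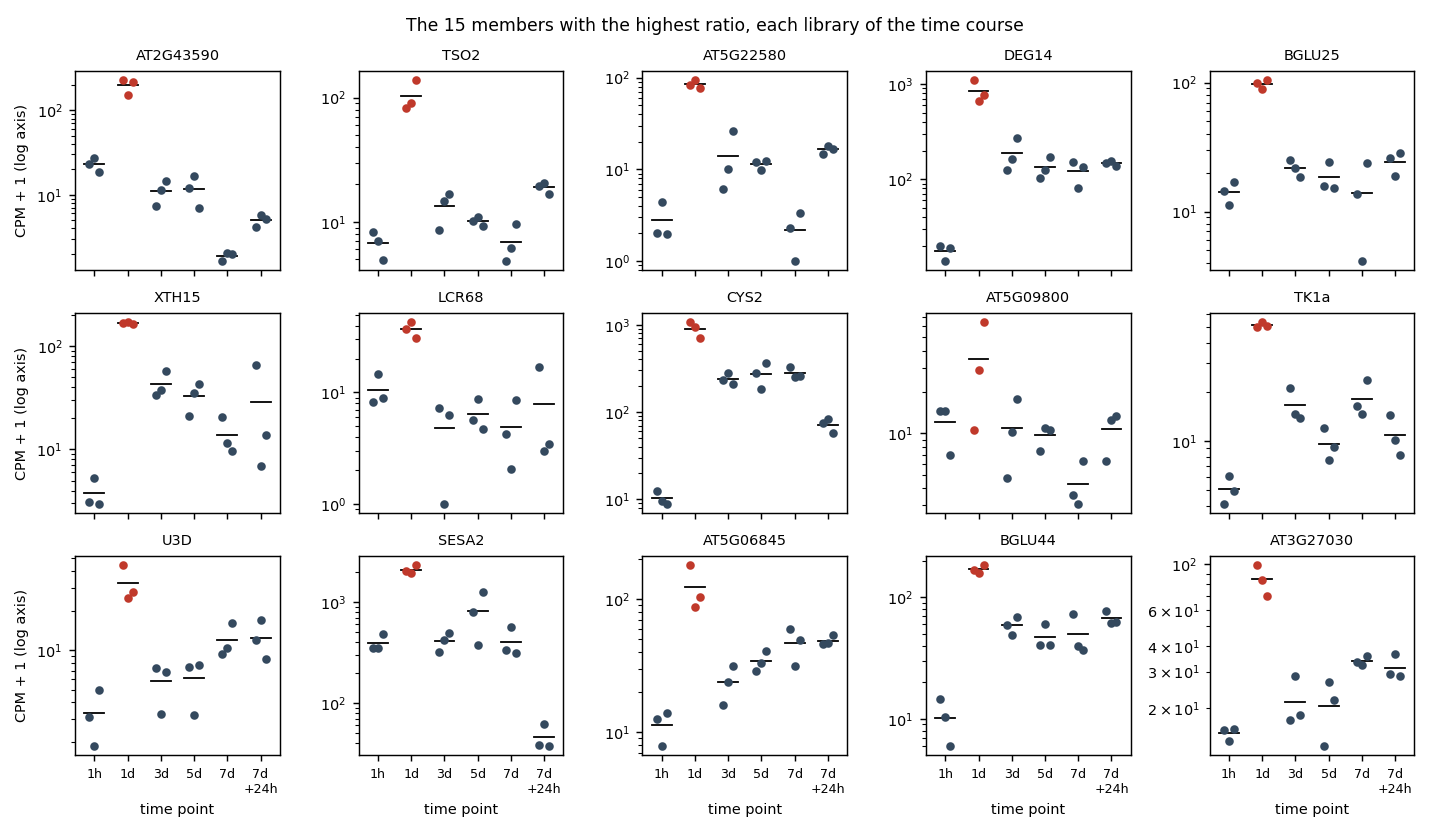
CPM + 1 (log axis) of the 15 members with the highest ratio in each of the 3 libraries (points) of the 6 time points, with 1d in red and a line at the mean. For AT2G43590 the 1d libraries lie at 150 to 230 CPM and all others at 26.4 or below, whereas the 1d libraries of AT5G09800 spread from 9.56 to 63.3.

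Seed storage and LEA genes gave the members of highest level. CRA1 was at 86613, 83624 and 88791 CPM at 1d, 11298, 10249 and 11273 at 1h, 47266 to 52160 at 3d and 12023 to 14117 at 7d+24h. Within the time course no library of another point reached the 1d libraries. In Col-0 at 3d of the genotype experiment, CRA1 held 7.66% to 8.11% of nuclear UMIs, against 4.99% at 3d of the time course. SESA2 was at 2011, 1942 and 2318 CPM at 1d, 349 to 479 at 1h and only 36.2 to 61.3 at 7d+24h. The cupin AT2G28490 (2893, 2981 and 2975 CPM at 1d) and the LEA protein genes EM1 (8459, 9103 and 6228) and LEA18 (8814, 7551 and 5912) were already high at 1h, with 1680 to 1710, 2281 to 3307 and 4464 to 6345 CPM. The list of 168 selectable storage, LEA and oil body genes as a whole had a median ratio of 0.652, against 0.672 for all selectable genes. The search for this list ignored case, so the letters of LEA inside other words could also match. With case kept it held 52 selectable genes, with a median ratio of 0.553. CRU3, another cruciferin, was at 37998 CPM at 1d and 44988 at 5d, and EM6 at 8776 at 1d and 36459 at 7d.

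GA20OX3, an oxidase of gibberellin synthesis, was at 774, 907 and 1118 CPM at 1d and 1.98 to 14.6 at 1h. The PEBP family gene E12A11, also known as MFT and a regulator of germination in Arabidopsis, was at 368, 402 and 436 CPM at 1d, 47.7 to 60.3 at 1h and 234 to 308 at 7d+24h. MEE8, a bHLH factor, was at 348, 562 and 387 CPM at 1d, 9.36 to 18.7 at 1h and 37.7 to 70.2 at 7d+24h. ATS3, an embryo-specific gene, was at 177, 243 and 228 CPM at 1d, 59.2 to 120 at 3d and 9.98 to 13.9 at 7d+24h.

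Redox genes were 7 of the members (7%), while the list made up 1.52% of the selectable genes. GSTF2, a glutathione S-transferase, was at 2518, 2112 and 3256 CPM at 1d, 300 to 386 at 1h and 1631 to 1943 at 7d+24h, and thioredoxin TRX3 at 681, 647 and 579 against 404 to 445 at 7d+24h. DHAR1, which regenerates ascorbate, was at 358, 336 and 362 CPM at 1d and at most 179 elsewhere. The neighbours GSTF7 (45.3, 44.6 and 56.2) and GSTF6 (51.0, 50.0 and 62.1) were at most 3.30 and 2.56 at 7d and reached 44.2 and 56.1 in the second recovery library. The other members of the list, PRXIIF and GSTZ1, had 7d+24h as their next highest point as well.

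Translation genes made up 7 of the members and 5.86% of the selectable genes. They shared a shape with 7d+24h close behind 1d. The elongation factor subunit gene eEF-1Bb1 was at 2110, 2002 and 1930 CPM at 1d, 1390 to 1496 at 7d+24h and 166 to 270 at 1h. The ribosomal protein genes PGY2 (927, 806 and 731) and AT2G41840 (846, 930 and 783) followed it, with 575 to 584 and 520 to 617 at 7d+24h. All 5 mitochondrial members (AT4G37830, AT5G47570, AT5G47030, AT1G76200 and SDH7, subunits of the respiratory chain and the ATP synthase) also had 7d+24h as next highest, and their ratios were 1.37 to 1.46. AT4G37830, a cytochrome c oxidase subunit gene, was at 247, 244 and 199 CPM at 1d and 155 to 175 at 7d+24h, and the complex I gene AT5G47570 at 258, 225 and 189 against 157 to 175.

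Of the other lists, defence held 4 members (1.27% of the selectable genes), cell wall 5 (0.973%), proteolysis 5 (3.23%), DNA replication, cell cycle and histones 6 (1.31%), transcription factors 4 (4.10%) and lipid and wax 2 (2.68%). By their product names AT1G06760 and AT2G30620, described above with the histones, were matched to the transcription factor list and not to the histone list. Chaperones and heat shock genes, 2.11% of the selectable genes, and ribosome biogenesis genes, 1.01%, gave 0 members each. LEJ2, a CBS domain gene, is in the defence list only by the letters of its product name. It was at 383, 369 and 330 CPM at 1d and at most 209 elsewhere, and AT1G78780, a pathogenesis-related family gene, at 128, 109 and 155. The defensin-like LCR68 was at 36.5, 41.7 and 30.1 CPM at 1d and at most 16.0 elsewhere. AT3G27030, uncharacterised, was at 98.1, 83.0 and 69.1, the non-coding AT5G06845 at 179, 85.9 and 103 and the snoRNA U3D at 43.5, 23.9 and 26.9, each above all other libraries. In all, 47 members fell in none of the lists, which were matched to RefSeq product names with upper and lower case not distinguished, a choice made after seeing the data; with case kept, translation held 2 members, cell wall 3, storage 4 and the replication list 3.

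The pool-split control, which the selection did not use, came from 7d seeds. All 100 members had a lower mean there than at 1d, and in 98 every control library was below every 1d library. The selection had already placed the members lower at 7d than at 1d, so these counts are no independent support. Their share over all selectable genes was not computed. Against the 7d libraries, 16 members had every control library above (4.99% of the selectable genes) and 29 every control library below (47.1%). TI1 was at 154, 130 and 153 CPM in the control against 21.7, 4.17 and 15.8 in the 7d seeds, and GSTF6 at 25.8, 18.3 and 27.0 against 2.56, 0 and 0.659. These are seeds of 1 treatment handled in different ways, and members had been chosen to be low at 7d.

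Summed over the members other than CRA1, the 1d level was shared by single seeds rather than carried by a few. Single members could be less even. The median 1d seed was at 57.8 CPM for AT2G43590 and 57.4 for XTH15, with 90th percentiles of 687 and 461. For CYS2 these values were 825 and 1479. In 96 seeds of 1d the members other than CRA1 took a median of 4.35% of a seed's UMIs (2.39% to 6.29%), while the medians at the other time points were 1.33% to 2.00%. The highest of the 473 seeds kept at other time points, a 7d seed, had 4.50%, and 40 of the 96 seeds of 1d lay above it. In turn, 11 seeds of other time points lay above the lowest 1d seed. With every seed thinned to 5000 UMIs, the median at 1d was 4.34%. The highest seed of a member held a median of 3.51% of its 1d UMIs and only in LCR68 over 10%, whereas for 4 members, AT5G09800 with 60.9% among them, a single library held over 50%. A UMI of CRA1 was found in every seed at 1d and, after thinning, CYS2 in 96.9% of seeds, AT2G43590 in 43.8% (82.3% before thinning) and TSO2 in 34.4% (95.8%).

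**Figure D3:**
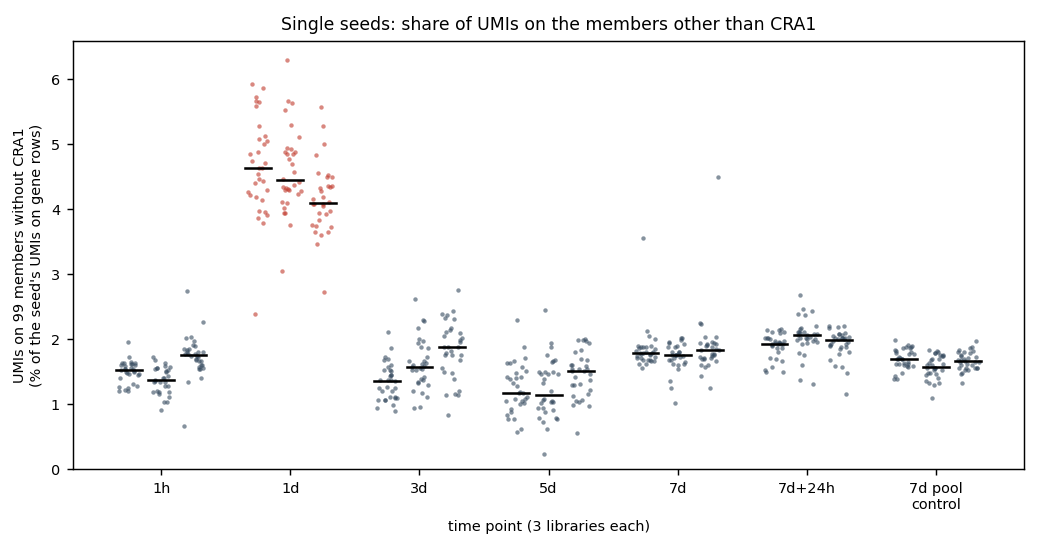
Percent of each seed's nuclear UMIs on the 99 members other than CRA1 (points, 1 per seed; lines, library medians), in the 3 libraries of each time point and of the 7d pool-split control, with 1d in red. The 1d seeds range from 2.39% to 6.29%, and the single 7d seed at 4.50% is the highest of the other time points.

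The levels of some members went together across single seeds of 1d. For 77 members with a mean of at least 5 UMIs per seed, Spearman correlations were taken across the seeds of each library and averaged over the 3 libraries. They had a median of 0.07 over 2926 pairs and passed 0.5 in 48 pairs. Once every 1d seed was thinned to 5000 UMIs, 1 pair passed it, GSTF2 with XTH11 (0.54). In the pool-split control, before thinning, the median was 0.02 and 5 pairs passed 0.5, the highest at 0.62. The control came from 7d seeds, where the members had been chosen to be low, and some had few counts in it. AT5G22580 had a mean of 0.323 UMIs per control seed and 7.10 per 1d seed, and AT5G52390 0.385 and 12.1. For such members the control gives no technical baseline for the correlations at 1d. Linking the 48 pairs of 1d gave 4 sets holding 27 members. The sets were formed after the values were seen, on values before thinning, and are described only. A set of 5 joined AT2G43590, AT5G22580, TI1, AT5G55050 and AT5G52390 (a PAR1 family gene), with a median correlation of 0.68. Their summed level ran from 26.4 to 3408 CPM over the 1d seeds with a median of 648, and the 10 highest seeds, of all 3 libraries (5, 2 and 3), held 30.9% of it. At 7d the median seed was at 0, at 7d+24h at 123.5 with a top of 2401, and in the control at 175. The correlation of this sum with seed depth was 0.00.

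A larger set of 18 held DEG14, XTH15, CYS2, SESA2, AT5G14450 (a GDSL lipase gene), AT3G02480, LEA18, eEF-1Bb1 and 5 ribosomal protein genes, among others, with a median correlation of 0.39. XTH11 and GSTF2 formed a pair (0.74), and CRA1 and MEE8 another (0.51). In the pool-split control these 2 pairs were at 0.18 and 0.36. The summed levels of the set of 18 and of CRA1 with MEE8 went opposite ways across seeds, at -0.42.

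The genotype experiment gave libraries independent of the selection, with 1771987 to 5066960 UMIs on nuclear genes each. In its Col-0 libraries 12 members had a 3d mean, and 4 a 7d+24h mean, at or above their 1d mean of the time course. For 85 members the 1d mean was above both. These Col-0 means are TMM-normalised and the 1d means are not, so the scales differ, and the share over all genes was not computed. DOG1 was at 58.2 to 137 CPM (normalised by TMM, as all CPM values given below for this experiment) in Col-0 at 3d and 6.77 to 11.7 in dog1-4, and 13.1 to 19.3 against 0.895 to 2.35 at 7d+24h, which goes with the labels, although the position of the insertion relative to the 3' tags was not given in the sources used here. Replicate 3 of dog1-4 at 3d stood apart. RBCS1A was at 2831 CPM in it and 55.6 and 41.2 in the other two, LHCB1.3 at 2045 against 1.46 and 0 with UMIs in 16 of its seeds, and several members were high only there. GSTF7 was at 93.2 CPM against 0 and 0.615, GSTF6 at 160 against 0.732 and 0, TI1 at 188 against 7.32 and 9.84, and AT2G43590 at 28.4 against 0 and 0. For TI1 and GSTF7 a single seed held 67.2% and 52.9% of that library's UMIs. The part of this library in each result was measured by leaving it out.

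From 3d to 7d+24h in Col-0, 11 of the 99 members tested rose and 21 fell, at an adjusted p under 0.05 and more than 1 on the log2 scale (edgeR quasi-likelihood test, Benjamini-Hochberg adjustment over 15420 genes), against 13.7% and 9.33% of all genes. Their median log2 change was -0.13 and that of all genes 0.05. AT2G43590 was not tested, having at most 4 counts in any Col-0 library. MEE8, the bHLH gene, fell farthest. It was at 800, 695 and 600 CPM at 3d and 54.3, 37.8 and 45.4 at 7d+24h, a 15.3-fold fall (log2 -3.93 ± 0.23 SE, adjusted p = 9.28e-07 by edgeR). Each SE in these tests is the size of the log2 change divided by the square root of its F statistic. It is not a separately fitted error, and for genes with few counts it need not cover counting error. XTH11 went from 506, 467 and 442 to 57.1, 42.9 and 33.1, which is log2 -3.41 ± 0.30 (adjusted p = 8.39e-06 by edgeR), and SCL3 from 93.9, 173 and 276 to 13.4, 21.3 and 19.8, or -3.30 ± 0.40 (6.92e-05). None of the 3 had overlapping groups. CRA1 fell from 96261 to 117366 CPM down to 14342 to 21957 (5.78-fold), SESA2 6.47-fold, GA20OX3 4.80-fold, ATS3 4.98-fold and CYS2 2.87-fold.

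The members that rose from 3d to recovery in Col-0 included 3 of the 5-gene seed set. AT5G55050 was at 1.25, 1.68 and 2.35 CPM at 3d and 14.4, 42.4 and 31.9 at 7d+24h (log2 4.05 ± 0.59, adjusted p = 0.000213 by edgeR), and TI1 at 6.89, 5.03 and 3.52 and then 52.4, 116 and 65.2 (3.92 ± 1.07, 0.0103). AT5G22580 had 2 counts at 3d and 113 at 7d+24h, a ratio of 39.1 with a 95% counting interval of 10.6 to 327, and the E6-like gene AT1G03820 had 1 and 78, a ratio of 54.0 (9.40 to 2158). These ratios and intervals use library totals without TMM. The fitted changes with TMM were smaller, at log2 4.46 and 4.82. The calls of these low-count genes were fragile: AT5G22580 missed the threshold without Col-0 3d replicate 1 or 3 or 7d+24h replicate 3 (fitted log2 3.55 to 3.97), and AT1G03820 without any 3d library or 7d+24h replicate 2 or 3 (4.30 to 7.43). The glycosyl hydrolase AT5G20950 rose from 5.87 to 22.4 CPM up to 110 to 198 and the lipase AT5G14450 from 17.6 to 61.0 up to 164 to 361. Of the translation members 2 of 7 rose and 0 fell, while 181 of all 376 tested translation genes rose and 2 fell (52 and 1 of 133 with case kept, where 0 of 2 members passed).

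In dog1-4 the same interval gave 11 members higher and 26 lower, against 17.9% and 16.3% of all genes (edgeR). Members called in both genotypes were 23, of which 16 fell and 7 rose in each, 9 were called in Col-0 only and 14 in dog1-4 only, which is not a test of a difference. The same overlap over all genes is not given here, so these counts show nothing particular to the members. ATS3 was at 60.0, 62.1 and 45.2 CPM at 3d and 0.298, 0.642 and 0.631 at 7d+24h, where it had 1, 3 and 4 counts (log2 -6.54 ± 0.32 SE, adjusted p = 1.54e-07 by edgeR). AT3G58200, a TRAF-like gene, went from 81.2, 75.7 and 43.2 to 6.27, 4.50 and 4.57 (-3.70 ± 0.25, 8.04e-07), and XTH11 from 616, 362 and 241 to 31.9, 31.3 and 33.7 (-3.64 ± 0.30, 1.91e-06). Groups were apart for all 3. On the rising side, AT5G14450 went from 21.2, 9.23 and 53.4 to 466, 501 and 540 CPM (4.08 ± 0.53, adjusted p = 3.14e-05 by edgeR), AT5G20950 from 15.4, 1.85 and 46.3 to 231, 247 and 284 (3.45 ± 0.59, 0.000282) and AT5G55050 from 2.19, 3.08 and 8.22 to 34.9, 22.5 and 40.8 (2.66 ± 0.46, 0.00033). GSTF7 was called lower on 0, 0.615 and 93.2 CPM at 3d and 2.09, 9.85 and 1.58 at 7d+24h (-2.94, adjusted p = 0.0353 by edgeR), and without the third 3d library it was called higher (3.53, 0.0363). Its direction was thus set by that 1 library. Without it 19 members rose and 28 fell, TI1 (1.84) and GSTF6 (4.81) now among those that rose. The shares over all genes in that fit are not given here. In the storage, LEA and oil body list, where 83 of 400 tested genes fell and 70 rose (40 and 11 of 83 with case kept), 4 of 6 members fell and 1 rose, AT3G02480, which went from 49.01, 108 and 85.0 to 349, 287 and 389.

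**Figure D4:**
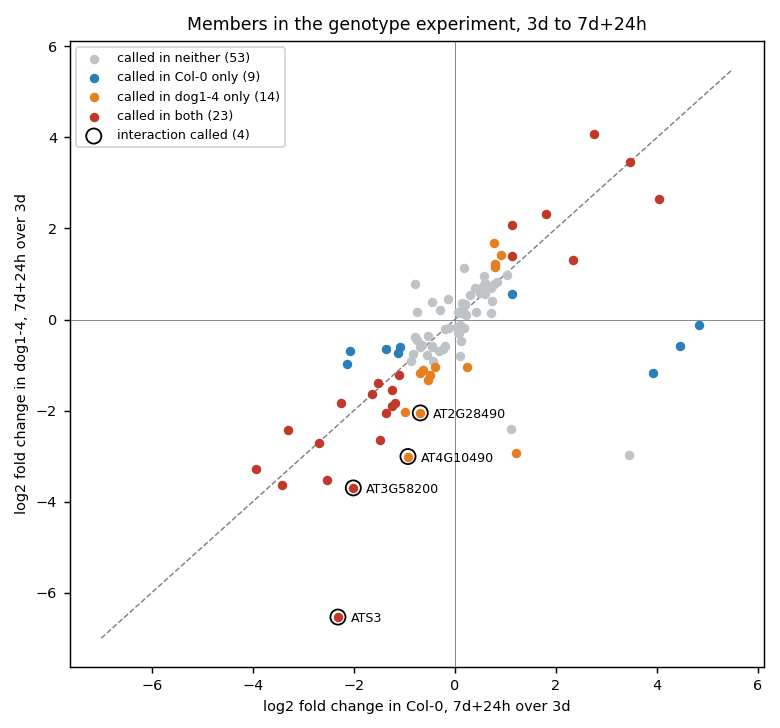
Log2 fold change from 3d to 7d+24h of the 99 tested members in Col-0 (horizontal) and in dog1-4 (vertical), coloured by the contrasts in which they were called, with the 4 members called for the interaction circled and a dashed line where both changes are equal. ATS3, at -2.32 in Col-0 and -6.54 in dog1-4, lies farthest below the line among the circled members, and TI1, AT5G22580 and AT1G03820, called in Col-0 only, lie far to the right of it.

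Between the genotypes at 3d, 4 members were higher in dog1-4 and 0 lower, against 0.642% and 0.305% of all genes. At an unadjusted p under 0.05 there were 28, with the share over all genes not given here. The annexin gene ANNAT2, whose product binds membranes in the presence of calcium, was at 71.0, 128 and 104 CPM in dog1-4 and 18.8, 20.1 and 28.2 in Col-0 (log2 2.18 ± 0.25 SE, adjusted p = 0.00101 by edgeR), and it was called whichever library was left out. BGLU25 was at 21.9, 91.0 and 36.3 against 10.0, 11.2 and 16.4 (1.98 ± 0.43, 0.0394), and the proline-rich gene AT5G45350 at 16.1, 25.2 and 40.1 against 7.51, 5.03 and 9.40 (1.95 ± 0.40, 0.0333). ATS3 was at 60.0, 62.1 and 45.2 against 18.8, 28.0 and 34.1 (1.03 ± 0.22, 0.0359). The calls of the last 3 depended on single libraries. The number called was 1 without Col-0 3d replicate 1, Col-0 3d replicate 2 or dog1-4 7d+24h replicate 2, it was 2 without Col-0 3d replicate 3, Col-0 7d+24h replicate 2 or dog1-4 7d+24h replicate 1 or 3, and it was 10 without dog1-4 3d replicate 1. BGLU25 was lost in 9 of the 12 leave-one-out fits (log2 1.84 to 2.22), ATS3 in 8 (0.83 to 1.06) and AT5G45350 in 5 (1.52 to 2.17), among them the fit without the library that stood apart.

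At 7d+24h, 9 members were higher in dog1-4 and 8 lower, against 5.45% and 5.84% of all genes. ADC2, an arginine decarboxylase of polyamine synthesis, was at 82.1, 76.2 and 127 CPM in dog1-4 and 16.2, 23.4 and 27.3 in Col-0 (log2 2.09 ± 0.42, adjusted p = 0.004 by edgeR). The groups did not overlap for AT5G45350 either, at 22.7, 32.5 and 38.8 against 8.74, 6.95 and 13.5 (1.69 ± 0.32, 0.00302). TSO2 was at 23.3, 17.1 and 32.2 against 6.87, 8.11 and 13.0 (1.37 ± 0.29, 0.00496). LCR68 was at 42.1, 22.7 and 41.6 against 4.37, 11.1 and 15.1 (1.77 ± 0.50, 0.0204), a call lost without Col-0 replicate 1 or 2 or dog1-4 replicate 1 or 3 of that time point (log2 1.43 to 1.82).

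Lower in dog1-4 at 7d+24h were ATS3, AT3G58200, CRA1, AT4G10490, U3B, AT2G28490, AT4G28240 and EM1, by size of the difference. ATS3 was at 0.298, 0.642 and 0.631 CPM against 5.93, 6.02 and 4.26 in Col-0 (log2 -3.19 ± 0.40, adjusted p = 0.000417 by edgeR), and AT3G58200 at 6.27, 4.50 and 4.57 against 21.8, 18.8 and 18.6 (-1.97 ± 0.25, 0.000463). CRA1 was at 4353, 5820 and 4581 CPM against 21957, 18266 and 14342 (-1.89 ± 0.31, 0.00147). EM1 and AT2G28490 were lower as well, 2.12-fold and 2.28-fold. AT2G28490 is in the storage, LEA and oil body list, and EM1 is not. AT3G02480 of that list was 3.23-fold higher, and over all 400 tested genes of the list 17 were higher and 42 lower. With case kept in the list, 6 of 83 were higher and 24 lower, with a median of -0.22 against 0.04 for all genes. Library sums cannot tell fewer seeds or cells expressing a gene from less RNA in each. The single seeds of these libraries were not compared between the genotypes here, and cells were not resolved.

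The interaction of genotype and time point was called for 4 members, all with a steeper fall in dog1-4, and for 0 in the other direction, against 2.36% and 0.674% of all genes (edgeR). At an unadjusted p under 0.05 there were 27, again without the share over all genes. ATS3 differed by log2 -4.22 ± 0.45 (adjusted p = 0.00146 by edgeR) and the oxygenase gene AT4G10490 by -2.08 ± 0.36 (0.0123), both called whichever library was left out. AT4G10490 went from 38.0, 33.2 and 24.0 CPM to 2.39, 4.50 and 4.26 in dog1-4 and from 23.8, 18.5 and 21.7 to 12.5, 12.3 and 8.78 in Col-0. AT3G58200 (-1.69 ± 0.33, 0.0181) lost its call in 5 leave-one-out fits, without Col-0 3d replicate 2, Col-0 7d+24h replicate 1 or 2, or dog1-4 7d+24h replicate 2 or 3 (-1.73 to -1.61), and AT2G28490 (-1.37 ± 0.28, 0.0244) in those 5 and without Col-0 3d replicate 3 or dog1-4 3d replicate 2. The number of members called was 2 without Col-0 3d replicate 2, Col-0 7d+24h replicate 2 or dog1-4 7d+24h replicate 2 or 3, and 11 without dog1-4 3d replicate 3, the library that stood apart. Of those 11, 8 were negative, CRA1 (-1.29) and U3D (-1.68) among them, and 3 positive, ADC2 (2.01), AT5G14450 (2.27) and AT4G24275 (1.87), so the absence of positive calls rested on that library.

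**Figure D5:**
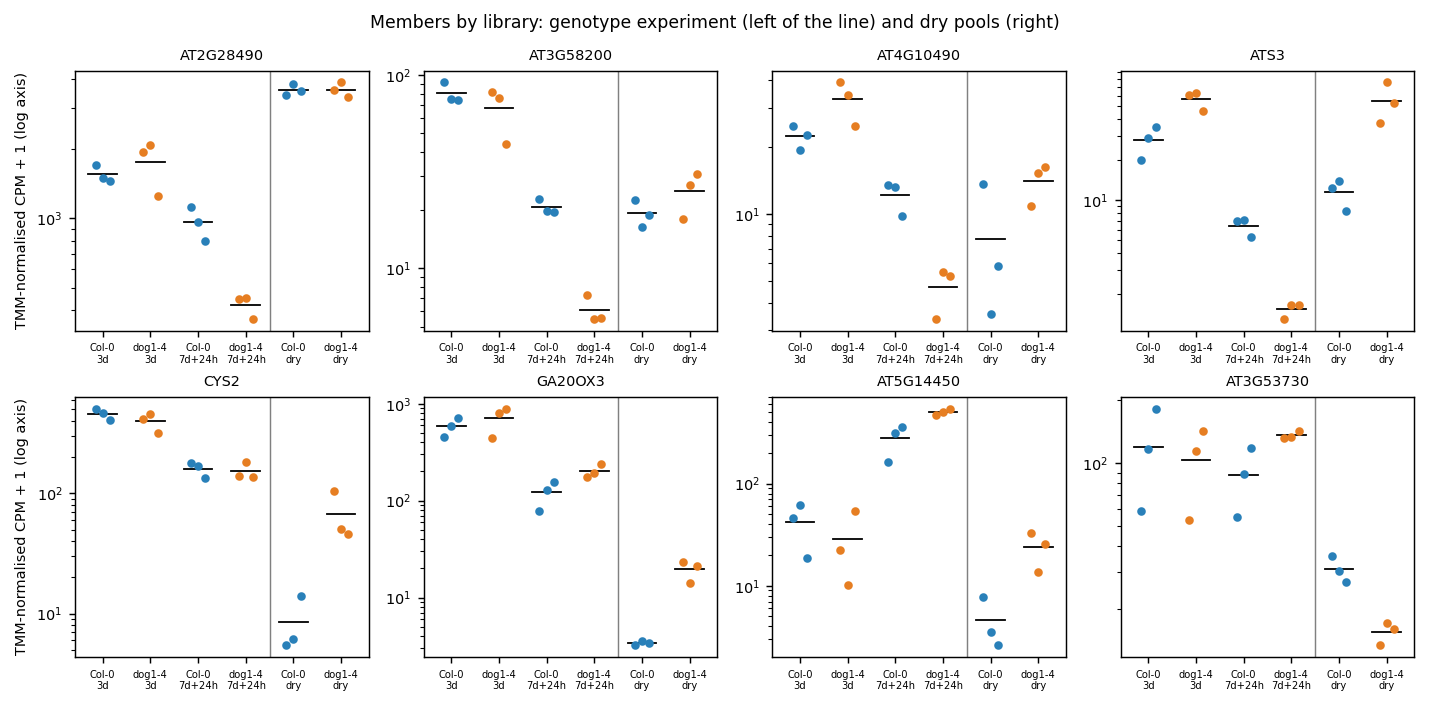
TMM-normalised CPM + 1 (log axis) of the 4 members called for the interaction (top) and of the 3 members most raised and the 1 most lowered in dog1-4 dry pools (bottom), in each library of the genotype experiment (left of the line) and each dry pool (right), Col-0 in blue and dog1-4 in orange, with a line at the mean. CYS2 lies at 44.8 to 103 in dog1-4 dry pools and at 4.47 to 13.0 in those of Col-0, but at 317 to 505 in both genotypes at 3d.

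Dry seeds of the genotypes differed in several members before any treatment. The pools, with 839377 to 3389208 counts on nuclear genes, gave 16 members higher in dog1-4 and 6 lower among the 83 tested, at an adjusted p under 0.05 with no minimum fold (edgeR, 9580 genes), against 4.76% and 5.24% of all genes. The 17 untested members, TSO2, XTH15, TK1a and TI1 among them, had too few counts. CYS2 was at 103, 49.6 and 44.8 CPM in dog1-4 and 4.47, 5.12 and 13.0 in Col-0 (log2 3.05 ± 0.38 SE, adjusted p = 6.3e-06 by edgeR). AT5G14450 was at 31.5, 12.7 and 24.5 against 6.71, 2.56 and 1.62 (2.50 ± 0.45, 0.000546), and ATS3 at 36.2, 74.2 and 51.4 against 11.2, 12.8 and 7.31 (2.42 ± 0.30, 6.33e-06). GA20OX3 had 43, 43 and 49 counts in dog1-4 and 3, 2 and 3 in Col-0, a ratio of 8.18 with a 95% counting interval of 4.03 to 19.3, on library totals without TMM. No pool of dog1-4 overlapped one of Col-0 for these 4 genes.

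BGLU25 (2.55-fold) and AT5G45350 (1.99-fold) were higher in dog1-4 dry pools too, as were SESA2 (2.09-fold), CRA1 (1.78-fold, not called without Col-0 pool 2 or 3), DHAR1 (1.52-fold) and GSTF2 (1.68-fold). For CRA1 this is the opposite direction to that at 7d+24h, and so it is for ATS3. Lower in dog1-4 were the histone H4 gene AT3G53730, at 12.4, 16.0 and 14.9 CPM against 35.0, 29.5 and 26.0 (log2 -1.05 ± 0.23, adjusted p = 0.00421 by edgeR), the wound-responsive gene AT4G28240, at 49.6, 81.7 and 71.3 against 138, 161 and 92.6 (-0.92 ± 0.20, 0.00387), and the chalcone isomerase family gene FAP1, at 30.5, 20.9 and 27.8 against 43.2, 56.3 and 43.1 (-0.85 ± 0.21, 0.00928). AT3G53730 was not called without Col-0 pool 1 (-0.91) and FAP1 not without Col-0 pool 2 or dog1-4 pool 2 (-0.73 and -0.69). AT2G43590 was at 94.2 to 137 CPM in Col-0 dry pools and 50.2 to 70.5 in dog1-4 (-0.84 ± 0.19, 0.00395), a call lost without Col-0 pool 1.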

How the data were processed

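Single-seed 3' RNA-seq libraries of the time course, the pool-split control and the genotype experiment, and bulk libraries of dry seeds, were analysed. Per the labels and methods the authors mapped uniquely aligned reads to TAIR10 with STAR 2.7.8a. They made the single-seed UMI matrices with BRBseqTools 1.6, and for the dry pools removed duplicates with UMI-tools 1.1.0 and counted with HTSeq 0.11.3. The deposited values are raw counts per gene. In the time course and control 42.7% of UMIs lay in 5 rows naming no gene and were left out. Members were ranked on the sums of all 32 seeds. For the genotype tests, seeds whose nuclear protein-coding genes held 5000 UMIs or more (382 of 384) were summed per library, and the library was the replicate. Counts were tested with edgeR 4.0.16 in R 4.3.3 (filterByExpr, TMM, quasi-likelihood F test, all groups of an experiment in 1 fit) with Benjamini-Hochberg adjustment over all genes. A call needed an adjusted p under 0.05 and, in the genotype experiment, a log2 fold change beyond 1. Where the labels name no separate cultures, p-values measure the spread between these libraries only, and counting intervals cover counting error only. On simulated data with known changes the Col-0 time contrast recovered 53% of 2-fold and 93% of 4-fold changes over 15256 genes, and the dry comparison 64% and 89% over 9477 genes.

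The members and the gene lists were chosen with earlier results of these data known. Genes were named by a rule: the 15 highest ratios, the 2 highest members of each list, the 3 largest changes in each direction of each contrast and the genes at the edge of the list. Others, such as GSTF7, GSTF6, SCL3 and SESA2 in the tests, were named after their values were seen, as were the promoters printed. Alternatives were DESeq2 1.42.0, other filters on genes and seeds, other fold limits, a replicate block, leaving out each library, and for the list other scalings, constants and minima. Product names matched without regard to case were an alternative chosen after seeing the data.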

Additional observations from a re-analysis of the deposited data

Results flagged for a closer look

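The change from 3d to 7d+24h differed between the genotypes by the interaction test (edgeR quasi-likelihood, Benjamini-Hochberg adjustment) for 4 members, each lower in dog1-4. On the log2 scale the difference was -4.22 for ATS3, -2.08 for AT4G10490, -1.69 for AT3G58200 and -1.37 for AT2G28490. ATS3 had 1, 3 and 4 counts in the dog1-4 libraries at 7d+24h.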

How the results depend on the processing

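Of 979 alternative values, 7 changed sign. Without dog1-4 3d replicate 3, the change of GSTF7 in dog1-4 from 3d to 7d+24h went from -2.94 to 3.53, called both ways, and the other leave-one-out fits gave -4.23 to -2.44. With genes limited to a mean of 1 UMI per kept seed and a correlation of at most 0.3 with unspecific UMIs, AT1G70985 (0.35), GSTF2 (0.29) and U3B (0.065) turned positive in Col-0 and AT1G70985 (0.40), GA20OX3 (0.38) and GSTF2 (0.37) in dog1-4, none of them called. Under that filter, with 14 members tested, 5 members were called in Col-0, 5 in dog1-4, 1 at 3d and 4 at 7d+24h. With no minimum fold, 61, 66 and 35 members were called in Col-0, in dog1-4 and at 7d+24h. Shares over all genes under these alternatives are not given here. At 3d, 15 were called with no filter on low counts and 1 with only the compared groups fitted, the interaction gave 7 by DESeq2 and 14 with no filter, and dry pools gave 9 beyond a log2 fold change of 1. Leaving out 1 library at a time gave 25 to 34 calls in Col-0, 35 to 47 in dog1-4, 1 to 10 at 3d, 12 to 23 at 7d+24h, 2 to 11 for the interaction and 16 to 22 in dry pools, and the list kept 81 to 88 members. Of the 100 members, TMM scaling kept 73 and the median over seeds 80.

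Same-numbered libraries did not deviate together throughout (correlations -0.18 to 0.42 in the genotype experiment, -0.19 to 0.06 in dry pools). With the replicate block, 32 members were called in Col-0, 37 in dog1-4, 4 at 3d, 21 at 7d+24h, 6 for the interaction and 19 in dry pools.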

Other observations

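In the time course, deviations of the members from the means of their time point were compared between same-numbered libraries, as a correlation over the 100 members with the deviations at 1d. For the first libraries it was -0.09 at 1h, 0.33 at 3d, 0.39 at 5d, 0.29 at 7d and 0.43 at 7d+24h, and for the third -0.28, 0.28, 0.23, 0.17 and 0.40. For the second libraries it was -0.01, 0.11, -0.12, 0.01 and -0.24. The members share their libraries, so these values are a description.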
